A study of Homo sapiens with 6 samples.

Results

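The guanylate-binding proteins GBP1, GBP2, GBP3, GBP4 and GBP5 are large GTPases encoded side by side on chromosome 1. They were taken here as a family of 5 genes by their symbols, out of 63677 Ensembl gene IDs, and each gene's level was the sum of its transcripts. The 5 genes have 32 of the 215170 transcripts in the deposited abundance table. Interferon gamma is the classical inducer of GBPs: through JAK kinases it leads to IRF1 and other interferon regulatory factors, which drive their transcription. The proteins bind and hydrolyse GTP, assemble into coats on membranes and on the surface of bacteria or vacuoles, and promote inflammasome activation and lysis of infected cells. GBP1, GBP2 and GBP5 end in a motif for a lipid (prenyl) anchor, and many leukocytes express the family at a basal level.

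The libraries came from KMS27, an established human line of myeloma (malignant plasma) cells. Of the 6 libraries of total RNA, 3 are from wild type KMS27 and 3 from KMS27 overexpressing HA-TAZ, which is the Hippo-regulated coactivator TAZ (gene WWTR1) with a short HA peptide tag. The comparison addresses how the transcriptome changes when TAZ is overexpressed. The wild type libraries are called control a, b and c because their column names could not be tied to single samples. Those names begin with scr, which is in no label, and what it stands for is not stated. The columns went to the wild type group because they are the only ones that do not name TAZ. The titles of the wild type samples also carry HA, and the labels used here do not say whether the control cells received a construct, which promoter drove HA-TAZ, or whether the overexpressing cells were 1 clone. The labels call the libraries triplicates without saying that they were separate cultures, so the p-values measure the spread between these libraries, which may be technical.

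WWTR1 was at 293, 306 and 293 TPM with HA-TAZ and at 2.69, 2.22 and 1.69 TPM in the controls. TPM is an abundance per transcript length, relative to all transcripts of a library, so levels of different genes can be compared, while read depth per library is unknown. TPM was also divided by a library factor that sets the typical expressed gene equal between libraries (scaled TPM). The factors were 0.866 to 0.967 in the HA-TAZ libraries and 1.06 to 1.21 in the controls, so scaling raised every HA-TAZ value relative to the controls. All 10 plasma cell markers had a mean of at least 1 TPM, and they summed to 2825 to 3262 TPM in the HA-TAZ libraries and 4308 to 4877 TPM in the controls. Most of that sum was JCHAIN, at a mean of 3124 TPM. By scaled TPM, 1 of the 10 markers was called higher and 1 lower (limma), with a median log2 fold change of −0.03. The shares over all tested genes were 4.67% higher and 2.63% lower. With the deposited TPM 1 marker was called higher and 5 lower, with a median of −0.33 against −0.27 over all genes tested. Over all 22651 tested genes 3329 were called with the deposited TPM, and 7.84% of those calls were higher. Of the markers of other cell types, 1 of 5 for T and NK cells (CD3G), 2 of 5 for monocytes and macrophages, 0 of 4 for endothelium, 1 of 4 for fibroblasts (COL1A1) and 1 of 4 for epithelium (KRT8) reached 1 TPM. The monocyte and macrophage sum was 11.4 to 15.4 TPM in the HA-TAZ libraries and 17.5 to 27.7 TPM in the controls, with CD163 at a mean of 14.4 TPM as its main part. In these bulk libraries, more cells that express a GBP and more GBP RNA per cell cannot be told apart.

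The promoters of 3 members carry the same kind of interferon motif, and the stretches around it are shown because they let the promoter of GBP1, which was called higher, be read beside those of GBP3 and GBP4, which were not called. The promoters are RefSeq's, on GRCh38.p14, from 250 bases before to 50 bases after the start. GBP1, GBP3 and GBP4 were found in that table, as were the related genes GBP6 and GBP7. GBP2 and GBP5 were not matched. The interferon-stimulated response element (ISRE), the DNA element bound by IRF factors, was searched on both strands as GAAA, any 2 bases and GAAA. Each sequence below reads 5′ to 3′ on the gene's strand, the minus strand of chromosome 1, with the match in capitals as the reverse complement of the searched letters.
GBP1 at chr1:89065318-89065347: tgaacgaagtacTTTCAGTTTCatattact
GBP3 at chr1:89022847-89022876: tgaaagaagtacTTTCAGTTTCattaggct
GBP4 at chr1:89198929-89198958: aagtgcatgtccTTTCAATTTCggttctca
The match lay from −127 to −118 in GBP1, from 3 to 12 in GBP3 and from −4 to 6 in GBP4, counted from 1 at the first transcribed base with −1 just before it. The GBP1 and GBP3 windows had the same base at 25 of 30 positions, while GBP4 shared 15 with each. The longest run common to the GBP1 and GBP3 promoters was 19 bases, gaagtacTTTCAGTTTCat. GBP6 and GBP7 had no match of these letters in this window. Of 35116 promoters in the table, 3.57% held the ISRE letters.

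Other motifs differed among the 3 promoters. GBP3 held TTCNNNGAA, the letters of the gamma-activated element GAS, from −15 to −7, and TGANTCA, those of AP-1, from −23 to −17. GBP4 held GGGA, any base and TTTCC, those of NF-kB, from −45 to −36. These letters, searched on both strands, were in 7.66%, 7.71% and 0.558% of the promoters in the table. GBP6 held the AP-1 letters from −151 to −145. None of the 5 promoters searched (GBP1, GBP3, GBP4, GBP6 and GBP7) held GGAATG, the letters of TEAD, the DNA-binding partner of TAZ. These letters were in 14.0% of all promoters, and the promoters of GBP2 and GBP5 were not searched. A match is a description of the letters and not evidence of binding. The 250 bases before the start of GBP1, at chr1:89065209-89065458 on the minus strand, show where its ISRE match (capitals) sits.
GBP1 upstream: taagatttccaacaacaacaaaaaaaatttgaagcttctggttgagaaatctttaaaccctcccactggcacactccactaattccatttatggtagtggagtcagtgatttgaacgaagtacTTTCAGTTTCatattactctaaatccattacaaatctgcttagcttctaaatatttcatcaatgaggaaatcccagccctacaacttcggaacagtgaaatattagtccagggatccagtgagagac

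GBP1 and GBP2 rose in the HA-TAZ libraries, while GBP3 and GBP4 did not pass the test and GBP5 was too low to be tested. Of the 5 members, 4 had a mean of at least 1 TPM and entered the fit over 22651 genes, and 2 of them were called higher and 0 lower. GBP2 passed that filter through the HA-TAZ libraries alone, as its controls were at 0.602 to 0.731 TPM. Of all tested genes, 4.67% were called higher and 2.63% lower, 7.29% in all (limma, Benjamini-Hochberg adjusted p under 0.05). By scaled TPM, 3 of the 5 members (GBP1, GBP2 and GBP3) lay higher in every HA-TAZ library than in any control, as did 20.2% of tested genes, while 38.5% were apart in either direction. Scaling set that balance: 64.0% of the 1652 calls were higher with the library factors, 43.2% of 1447 with factors from genes at 10 TPM or more, and 7.84% of 3329 with the deposited TPM. GBP1 and GBP2 were called higher under all 3. Fold changes from limma are on the log2(scaled TPM + 1) scale, which understates the change of low genes.

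GBP2, a prenylated member that is recruited to bacteria and vacuoles together with GBP1, had the largest fold change of the family. It was at 2.95, 3.46 and 3.05 TPM with HA-TAZ and at 0.731, 0.651 and 0.602 TPM in the controls. The groups were far apart, with the lowest HA-TAZ library well above the highest control. The mean scaled TPM was 3.47 ± 0.0954 (SD, n = 3) with HA-TAZ and 0.591 ± 0.0185 (SD, n = 3) in the controls, a ratio of 5.88. On the log2(scaled TPM + 1) scale GBP2 rose by 1.49 units (SE 0.09, limma, Benjamini-Hochberg adjusted p = 0.00268). It ranked 43 among the 1057 genes called higher, ordered by log2 fold change.

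GBP1, the best studied member, whose prenylated form coats cytosolic bacteria, was at 5.44, 6.77 and 5.78 TPM in the HA-TAZ libraries. In the controls it was at 3.38, 2.74 and 2.77 TPM. Again every HA-TAZ library lay above every control. The mean scaled TPM was 6.59 ± 0.371 (SD, n = 3) against 2.64 ± 0.145 (SD, n = 3), a ratio of 2.50, and the ratio of the deposited TPM was 2.02. On the log2(scaled TPM + 1) scale GBP1 rose by 1.06 (SE 0.08, limma, Benjamini-Hochberg adjusted p = 0.0061), which ranked it 104 among the genes called higher.

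GBP3, which is closest to GBP1 in sequence, was at 4.64, 5.65 and 5.48 TPM with HA-TAZ and at 5.42, 5.05 and 3.80 TPM in the controls. These groups overlapped. After scaling they separated, at 5.36, 5.85 and 6.15 scaled TPM against 4.48, 4.63 and 3.59, so whether the groups overlapped depended on the library factors. The fitted difference was 0.38 on the log2 scale (SE 0.11) and did not pass the test (limma, Benjamini-Hochberg adjusted p = 0.0857). With the deposited TPM it was 0.13 (limma adjusted p = 0.514).

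GBP4, which has no prenylation motif, was at 1.63, 2.19 and 2.04 TPM with HA-TAZ and at 3.29, 2.40 and 2.22 TPM in the controls. As deposited, every HA-TAZ library lay just below every control. After scaling the groups overlapped, at 2.15 ± 0.226 (SD, n = 3) against 2.34 ± 0.330 scaled TPM (SD, n = 3). The fitted difference was −0.08 (SE 0.12, limma, Benjamini-Hochberg adjusted p = 0.659). GBP5, the prenylated member that promotes assembly of the NLRP3 inflammasome, was at 0.174, 0.245 and 0.131 TPM against 0.248, 0.207 and 0.205 TPM. Its groups overlapped at a level under the filter of 1 TPM, so it was not tested.

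**Figure D1:**
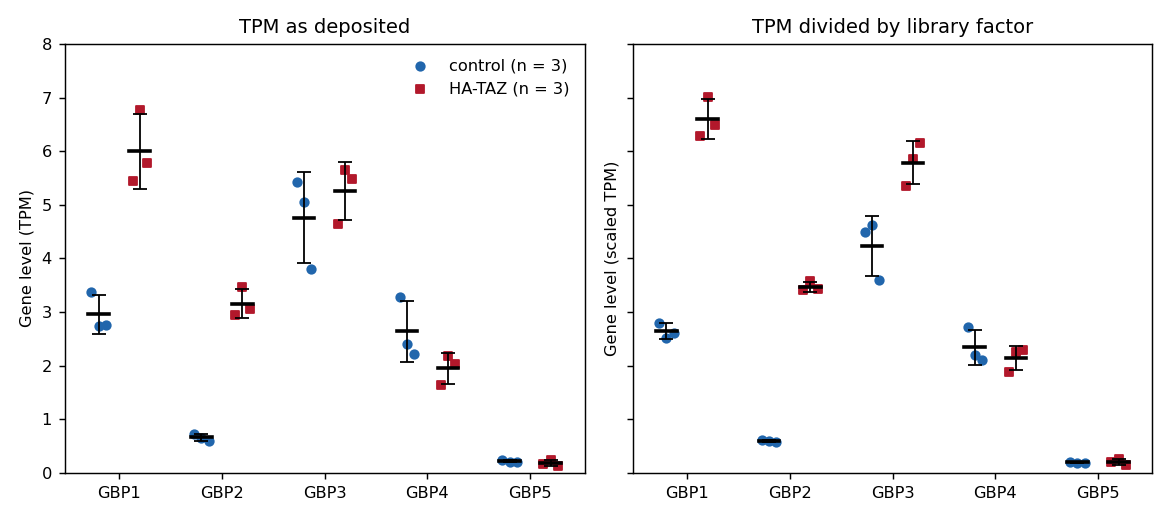
Level of each GBP gene in the 6 libraries, as deposited TPM (left) and as scaled TPM (right); points are libraries, horizontal bars the mean and whiskers 1 SD (n = 3 per group). GBP1 and GBP2 are apart on both scales, with GBP2 at 2.95 to 3.46 TPM against 0.602 to 0.731, whereas GBP3 is apart after scaling and GBP4 as deposited.

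The order of the members changed between the groups. In the controls, GBP3 was the most abundant at 4.76 ± 0.849 TPM (SD, n = 3), followed by GBP1 at 2.96 ± 0.364, GBP4 at 2.64 ± 0.569, GBP2 at 0.662 ± 0.0651 and then GBP5. The GBP1 and GBP4 values overlapped there, and the other neighbours in that order did not. In the HA-TAZ libraries, GBP1 led at 5.996 ± 0.693 TPM (SD, n = 3), followed by GBP3 at 5.26 ± 0.543, GBP2 at 3.155 ± 0.272, GBP4 at 1.95 ± 0.288 and GBP5. GBP1 and GBP3 overlapped there, although GBP1 was the higher of the pair in each HA-TAZ library. All of these were modest levels: by mean TPM over the 6 libraries, GBP3 lay above 44.3% of the tested genes, GBP1 above 41.5%, GBP4 above 24.2% and GBP2 above 18.9%. The order depended on summing all transcripts of a gene. Over protein-coding transcripts alone, the control means were 2.33 TPM for GBP4, 2.27 for GBP3, 1.10 for GBP1 and 0.431 for GBP2. With HA-TAZ the coding means were 2.93 TPM for GBP3, 2.91 for GBP1, 2.32 for GBP2 and 1.95 for GBP4.

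Shares of the summed GBP RNA, with coding and other transcripts included, do not depend on library scaling. GBP2 took 19.9%, 18.9% and 18.5% of the summed TPM of the 5 genes in the HA-TAZ libraries, and 5.59%, 5.90% and 6.27% in the controls. GBP1 took 36.7%, 37.0% and 35.1% against 25.9%, 24.8% and 28.8%. Both shares were thus higher in every HA-TAZ library. GBP3 took 31.3%, 30.9% and 33.2% against 41.5%, 45.7% and 39.6%, and GBP4 took 11.0%, 11.9% and 12.4% against 25.1%, 21.8% and 23.2%. Both shares were lower in every HA-TAZ library. All shares are parts of the same sum, so those of GBP1 and GBP2 cannot rise without a fall elsewhere. The lower share of GBP3 was not a lower level, as its mean was 5.26 TPM with HA-TAZ and 4.76 TPM in the controls, with overlapping groups. The mean of GBP4 was 1.95 TPM against 2.64 TPM, and its groups overlapped after scaling. GBP5 took between 0.792% and 1.34% with HA-TAZ and between 1.88% and 2.14% in the controls.

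**Figure D2:**
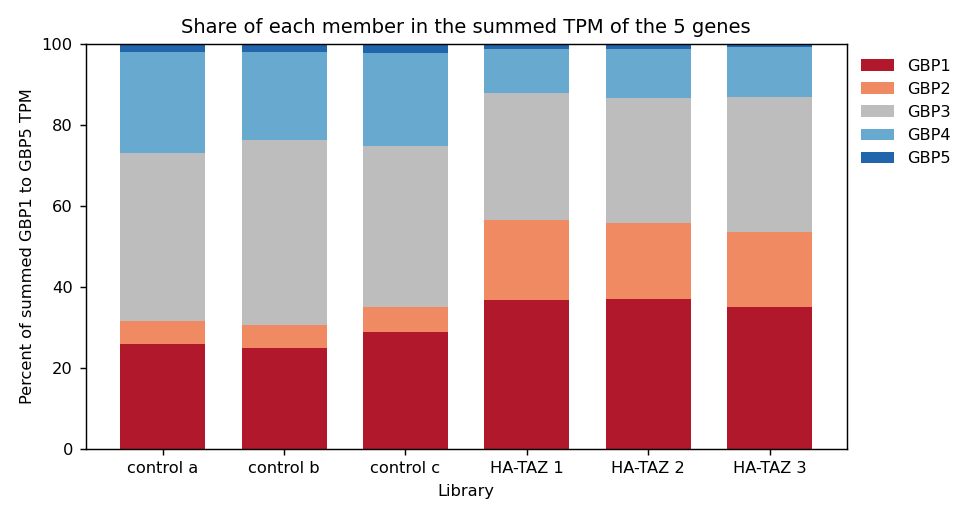
Percent of the summed TPM of GBP1 to GBP5 taken by each gene (stacked bars) in each of the 6 libraries. GBP1 and GBP2 together fill more of every HA-TAZ bar, and GBP4 takes at least 21.8% of each control bar and at most 12.4% of each HA-TAZ bar.

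The summed TPM of the 5 genes was 14.8, 18.3 and 16.5 in the HA-TAZ libraries and 13.1, 11.05 and 9.60 in the controls, a ratio of 1.47 as deposited and of 1.82 after scaling. The groups did not overlap, though the gap between HA-TAZ 1 and control a was small as deposited.

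Ratios between members, which do not depend on library scaling, were compared next. The ratio of GBP2 to GBP4 was 6.40-fold higher with HA-TAZ, a difference of 2.68 on the log2 scale. GBP2 over GBP3 differed by 2.10 and GBP1 over GBP4 by 1.44. GBP1 over GBP2 differed by −1.24, so the ratio of GBP1 to GBP2 was 0.424 of its control value. GBP1 over GBP3 differed by 0.86 and GBP3 over GBP4 by 0.58. In all 6 pairs of tested members the HA-TAZ and control values were apart, and each pair gave the smallest p that 3 libraries against 3 can give, p = 0.1 (exact two-sided permutation test; 0.1 after Benjamini-Hochberg adjustment over the 6 pairs), so the design cannot reach 0.05 here. The 6 ratios share 4 genes and are not independent of each other or of the calls above. How often other gene pairs were apart was not computed.

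Most of the GBP1 and GBP2 change lay in the main protein-coding transcript of each gene. Of the 32 transcripts, 23 had a mean of at least 0.1 TPM, 6 were listed at 0 in all libraries and 5 passed the filter of 1 TPM. Of these 5, 2 were called higher and 0 lower, against 0.432% of 57448 tested transcripts called higher and 0.534% called in either direction (limma, Benjamini-Hochberg adjusted p under 0.05). Among the 2, ENST00000370466.3 of GBP2 passed the filter through the HA-TAZ libraries alone, with a control mean of 0.431 TPM. The authors' deposited table gave statistics for 18 of the 32, and 4 had a q-value under 0.05, all higher with HA-TAZ, against 4.08% of its 109487 transcripts called higher and 5.68% called in either direction. In the authors' deposited table, 1 of these 4 belongs to GBP1 and 3 belong to GBP2.

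The GBP2 coding transcript ENST00000370466.3 was at 2.12, 2.55 and 2.28 TPM with HA-TAZ and at 0.490, 0.488 and 0.314 TPM in the controls. No control came near the HA-TAZ libraries, and the ratio of the scaled means was 6.66. Its log2 fold change was 1.36 (SE 0.11, limma, Benjamini-Hochberg adjusted p = 0.0141), and it missed the threshold whenever 1 library was left out (0.0506 to 0.115). The authors' deposited table gave it a natural log effect of 1.92 (SE 0.177) and a q-value of 5.56e-24 from a geometric mean of about 134 estimated counts over both groups. For 2 low GBP2 transcripts, the nonsense-mediated decay form ENST00000464839.1 and the processed transcript ENST00000463660.1, the authors' deposited table gave effects of 1.44 (q = 1.53e-04) and 1.08 (q = 0.0147).

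The GBP1 coding transcript ENST00000370473.4 was at 2.69, 3.15 and 2.90 TPM with HA-TAZ and at 1.04, 1.11 and 1.15 TPM in the controls. The HA-TAZ values were all above the control values, and the scaled ratio was 3.24. Its log2 fold change was 1.08 (SE 0.10, limma, Benjamini-Hochberg adjusted p = 0.0199). The call was lost with the deposited TPM without library factors (adjusted p = 0.0522 in limma), and whenever 1 library was left out (0.0535 to 0.128). In the authors' deposited table its effect was 1.20 (SE 0.111, q = 5.13e-24) from about 339 estimated counts.

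The non-coding transcripts of GBP1 had lower mean levels than its coding transcript, and none was called. The processed transcript ENST00000479889.1 was at 1.60 ± 0.353 TPM (SD, n = 3) with HA-TAZ and at 0.764 ± 0.235 TPM (SD, n = 3) in the controls, without passing the test (limma, Benjamini-Hochberg adjusted p = 0.0838; q = 0.29 in the authors' deposited table). ENST00000468959.1 lay lower in every HA-TAZ library, with means of 0.0401 against 0.341 TPM, on a mean of 2.45 estimated counts in the authors' deposited table, which did not call it (q = 0.498). The other 5 GBP1 transcripts overlapped between the groups.

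The GBP3 coding transcript ENST00000370481.4 was at 1.97, 1.71 and 1.70 TPM with HA-TAZ and at 0.921, 1.20 and 0.961 TPM in the controls. All HA-TAZ values were higher, as they were for 17.0% of tested transcripts by scaled TPM, but the difference of 0.63 (SE 0.13) did not pass the test (limma, Benjamini-Hochberg adjusted p = 0.0823). The authors' deposited table also did not call it, with an effect of 0.787 (SE 0.519, q = 0.492) and a technical variance of 0.387, against a median of 0.0569 over all its transcripts. The other GBP3 transcripts with at least 0.1 TPM overlapped between the groups.

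The GBP4 coding transcript ENST00000355754.6 was at 1.95 ± 0.288 TPM (SD, n = 3) with HA-TAZ and 2.33 ± 0.284 TPM (SD, n = 3) in the controls, with a fitted difference of 0.03 (SE 0.105, limma, Benjamini-Hochberg adjusted p = 0.876). In the authors' deposited table its effect was 0.051 (q = 0.842), from about 841 estimated counts, the deepest of the family. The second GBP4 transcript, ENST00000471938.1, had 0 TPM in every HA-TAZ library and in control c, at 0.640 TPM in control a and at 0.298 TPM in control b. The GBP5 transcript ENST00000343435.5 was not called in the authors' deposited table either (q = 0.90).

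**Figure D3:**
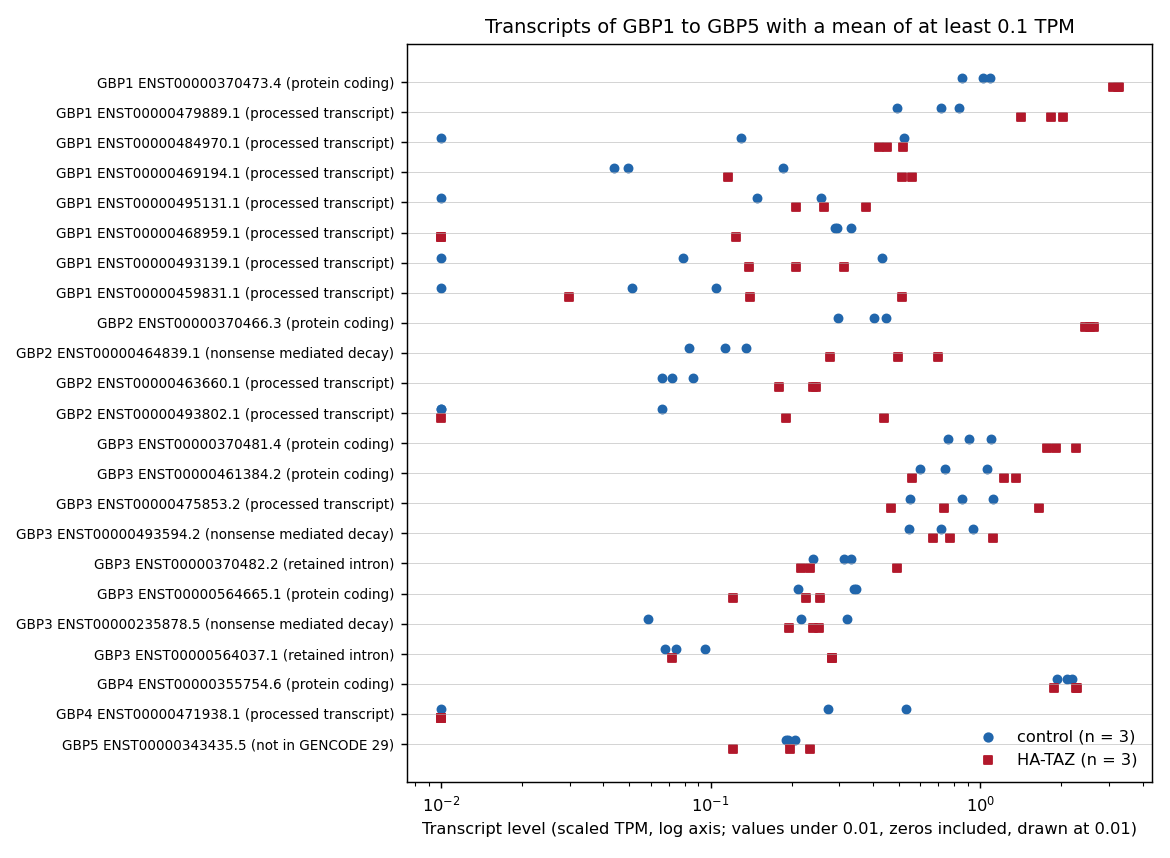
Scaled TPM on a log axis of the 23 GBP transcripts with a mean of at least 0.1 TPM, 1 point per library (n = 3 per group; values under 0.01, zeros included, are drawn at 0.01). The coding transcripts of GBP1 and GBP2 show tight groups set far apart, while most low transcripts scatter over both groups.

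The share of a gene's TPM in its main transcript does not depend on scaling either. For GBP1 it was 49.4%, 46.5% and 50.1% in the HA-TAZ libraries and 30.6%, 40.7% and 41.7% in the controls. For GBP3 it was 42.4%, 30.2% and 31.01% against 17.0%, 23.7% and 25.3%. In both genes the HA-TAZ shares were all higher, at the smallest p the design allows (p = 0.1, exact two-sided permutation test; 0.2 after Benjamini-Hochberg adjustment over 4 genes). How often such shares were apart in other genes was not computed. The GBP2 shares overlapped, at 73.5% ± 1.42 against 64.7% ± 11.6 (SD, n = 3; exact permutation p = 0.4). So did those of GBP4, whose coding transcript held 100% of the gene's TPM in each HA-TAZ library and 80.5%, 87.6% and 100% in the controls (exact permutation p = 0.4). Single controls set the size of both differences. For GBP2 the difference of 8.79 percentage points was 2.50 without control c and 13.9 without control b, and for GBP4 the difference of 10.6 was 6.19 without control a and 15.9 without control c.

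With protein-coding transcripts alone, an alternative chosen after seeing the data, the log2 fold changes were 0.99 for GBP1, 1.29 for GBP2, 0.37 for GBP3 (SE 0.11) and −0.07 for GBP4. GBP3 then passed the threshold at an adjusted p of 0.0472 (limma, Benjamini-Hochberg), in a fit that called 18.9% of 10527 genes, 9.47% higher and 9.41% lower. It was the sole alternative of 13 in which GBP3 was called.

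The members share sequence, so reads can be assigned to the wrong one. Of the 31-base stretches in the main transcript, 25.7% in GBP1, 13.4% in GBP4, 11.8% in GBP3 and 8.08% in GBP2 also occur in transcripts of another gene (GENCODE release 29). For GBP1, 527 of them occur in the pseudogene GBP1P1, 279 in GBP3 and 118 in GBP2. GBP1P1 itself was listed at only 0.126 to 0.178 TPM with HA-TAZ and 0.182 to 0.233 TPM in the controls.

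**Figure D4:**
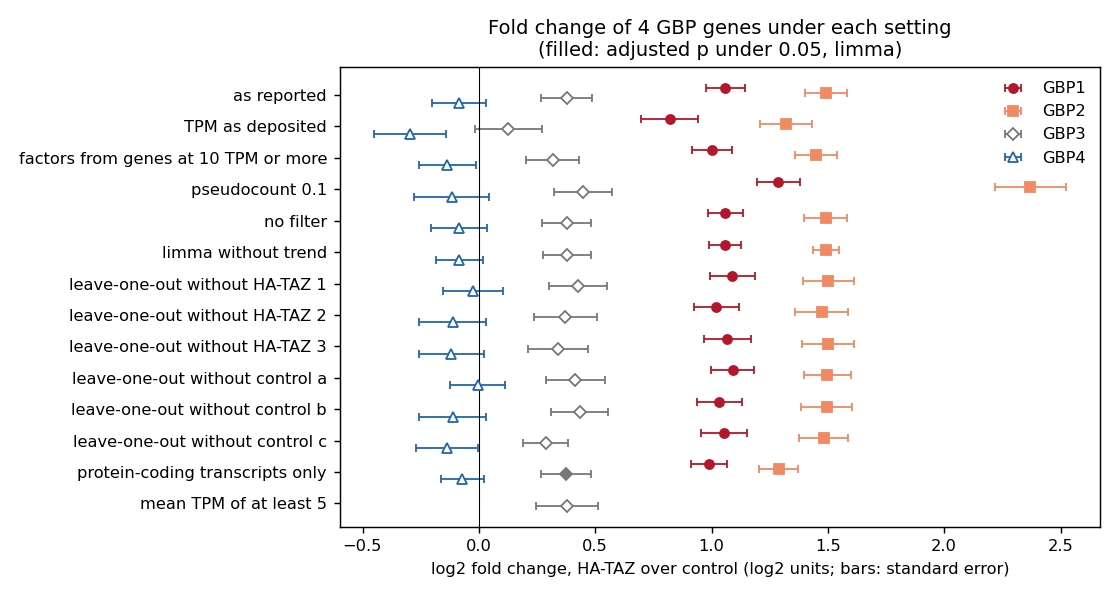
Log2 fold change (HA-TAZ over control, bars 1 SE) of the 4 tested GBP genes as reported and under each alternative setting, filled where limma's adjusted p was under 0.05. GBP1 stays between 0.82 and 1.29 and GBP2 between 1.29 and 2.37, filled in every setting drawn for them. GBP3 lies between 0.13 and 0.45 and is filled once, and GBP4 lies between −0.29 and −0.01. At the filter of 5 TPM, GBP3 alone was tested and is drawn.

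Among the related large GTPases, 8 of 12 were tested, 1 was called higher and 0 lower, with a median log2 fold change of 0.20 against −0.03 over all genes tested. Over all tested genes, 4.67% were called higher and 2.63% lower. With the deposited TPM 0 of the 8 were called in either direction, with a median of −0.09 against −0.27 over all genes. Over all 22651 tested genes 3329 were called with the deposited TPM, and 7.84% of those calls were higher. The gene called higher with the library factors was MX1, an interferon-induced antiviral GTPase, at 0.32 (limma, Benjamini-Hochberg adjusted p = 0.0498, lost whenever 1 library was left out, 0.0673 to 0.14). Its difference with the deposited TPM was 0.04 (limma, Benjamini-Hochberg adjusted p = 0.831). GBP6, a further member of the cluster, was at 0.993, 0.975 and 1.09 TPM against 1.12, 1.55 and 1.15 TPM. It was lower as deposited and overlapped after scaling (log2 fold change −0.01, limma adjusted p = 0.973). GBP7 was listed at 0 in all 6 libraries. Of the genes around the cluster on chromosome 1, 9 of 10 were tested, 1 was called higher and 0 lower, and the median was 0.02. With the deposited TPM 0 of them were called higher and 1 lower, with a median of −0.24 against −0.27 over all genes. The direct neighbours RBMXL1 and LRRC8B differed by 0.05 and 0.02 (limma, Benjamini-Hochberg adjusted p = 0.760 and 0.926), and these small differences turned negative with the deposited TPM (−0.16 and −0.22). The gene called higher with the library factors was LMO4, at 0.28 (adjusted p = 0.0470 in limma, lost whenever 1 library was left out, 0.0690 to 0.15, and at −0.0121 with the deposited TPM).

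Of the interferon and JAK-STAT genes, 18 of 22 were tested. Of these, 9 were called higher and 0 lower (4.67% and 2.63% of all tested genes), with a median of 0.43. IRF1, the transcription factor that activates GBP promoters, was at 42.8, 42.9 and 43.3 TPM with HA-TAZ and at 26.7, 25.2 and 24.8 TPM in the controls. The groups were well apart, and IRF1 rose by 1.02 (SE 0.06, limma, Benjamini-Hochberg adjusted p = 0.00243). IRF9, a DNA-binding factor of the interferon response, rose by 0.91 (adjusted p = 0.0138 in limma), and CIITA, the master regulator of MHC class II genes, by 0.83 (adjusted p = 0.0092 in limma). The IRF9 call was lost without any 1 of the HA-TAZ libraries (adjusted p up to 0.0694 in limma), and the CIITA call without HA-TAZ 1 (0.0507) or control b (0.0504). The ligand genes are named here after their values were seen. IFNG, which encodes interferon gamma, was listed at 0 except for 0.0135 TPM in control b, and IFNB1, which encodes interferon beta, was at 0.559, 0.510 and 0.445 TPM with HA-TAZ against 0.0906, 0.0215 and 0.0325 TPM, under the filter.

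Of the other genes induced by interferon gamma, 15 of 20 were tested. Of these, 12 were called higher and 0 lower (4.67% and 2.63% of all tested genes), with a median of 0.73. The largest rises were those of the chemokine CXCL10 (3.38), the ubiquitin-like UBD (2.62, a symbol with several gene IDs) and the adhesion molecule ICAM1 (2.32). Of the genes induced by NF-kB, 11 of 15 were tested, 7 were called higher and 0 lower, with a median of 0.63. The adaptor TRAF1 (1.98), the chemokine CCL3 (1.96) and the NF-kB subunit RELB (1.18) led, and the RELB call was lost without HA-TAZ 1 (limma adjusted p = 0.0613), HA-TAZ 3 (0.0515) or control b (0.0504). These lists were chosen with earlier results of the same libraries known, and their counts are not independent evidence of a direction. With the deposited TPM, where the median over all genes was −0.27, the counts called higher were 6 of 15 and 6 of 11, and 4 of the 18 interferon and JAK-STAT genes were called higher and 2 lower. In that setting 3329 of all 22651 tested genes were called, and 7.84% of those calls were higher. The 7.84% is a share of calls, unlike the list counts, which are out of tested genes.

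Of the inflammasome and lysis partners of GBPs, 10 of 13 were tested. Of these, 4 were called higher and 1 lower (4.67% and 2.63% of all tested genes), and the median was 0.22. With the deposited TPM 4 were called higher and 2 lower, with a median of −0.05. Over all 22651 tested genes 3329 were called with the deposited TPM, and 7.84% of those calls were higher. AIM2, a DNA sensor that GBPs help to activate, was at 17.7, 17.9 and 14.6 TPM with HA-TAZ and at 7.91, 7.36 and 8.09 TPM in the controls. No control reached the lowest HA-TAZ library, and AIM2 rose by 1.28 (SE 0.10, limma, Benjamini-Hochberg adjusted p = 0.0061). APOL3, an interferon-induced protein that permeabilises bacterial membranes alongside GBPs, rose by 1.14 (adjusted p = 0.0114 in limma), and NINJ1, which ruptures the plasma membrane of dying cells, by 0.99 (adjusted p = 0.00944 in limma). The APOL3 call was lost without HA-TAZ 2 (adjusted p = 0.0598 in limma), HA-TAZ 3 (0.0525) or control b (0.0527), and the NINJ1 call without HA-TAZ 1 (0.0541). The inflammatory caspase CASP4, which binds lipopolysaccharide on GBP coats, fell by 0.35 (adjusted p = 0.0457 in limma, lost whenever 1 library was left out, 0.0840 to 0.141). CASP1, CASP5 and IL18, named after their values were seen, also lay lower in every HA-TAZ library by scaled TPM, as did 18.3% of tested genes. Their differences of −0.30, −0.58 and −0.59 did not pass the test (limma adjusted p = 0.157, 0.0575 and 0.116). Over the whole list, 6 tested genes lay higher and 4 lower in every HA-TAZ library. Of the 9 prenylation genes, which attach and trim the lipid anchor, 0 were called in either direction by limma (1 was called lower with the deposited TPM). Their median was 0.08, and 2 had an unadjusted p under 0.05 (limma), as did 30.7% of all tested genes.

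**Figure D5:**
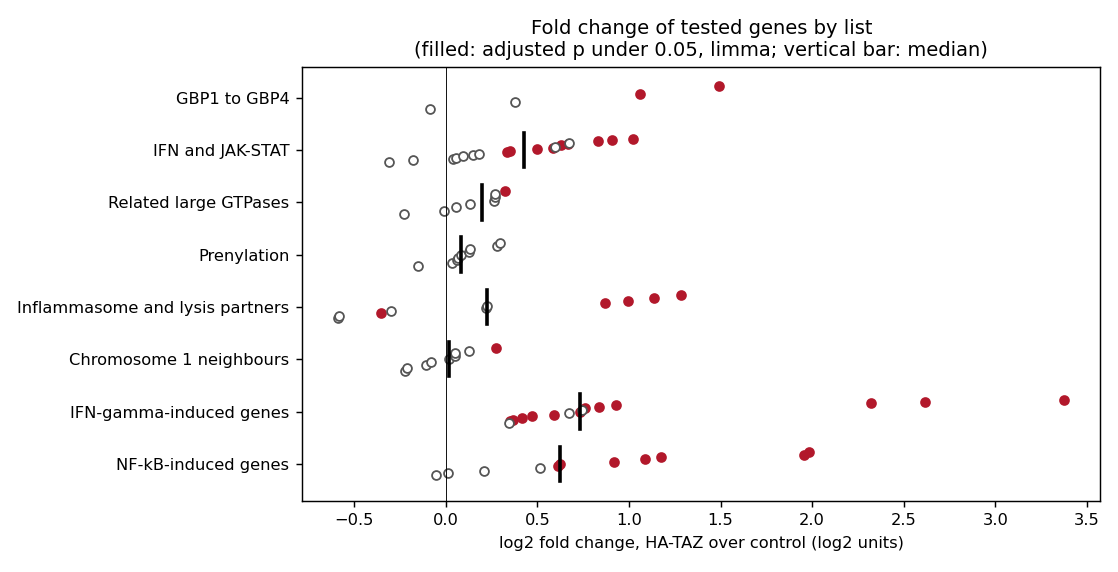
Log2 fold change (HA-TAZ over control) of each tested gene by list, 1 point per gene, filled where limma's adjusted p was under 0.05, with a vertical bar at the median of each list other than the GBP genes. GBP1 and GBP2 (1.06 and 1.49) lie to the right of the median of every list, and the medians run from 0.02 for the chromosome 1 neighbours to 0.73 for the genes induced by interferon gamma.

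Likeness to the family was measured as the root mean square difference, over the 6 libraries, between a gene's centred log2(scaled TPM + 1) and the mean centred profile of the 4 tested members. The 8 nearest genes were IL2RG (0.0555), SLC22A9, NLRC5, AMACR, HIST1H3PS1, HIPK2, EFNB2 and ZXDB (0.0705), against a median of 0.412 over 22647 genes. The members themselves lay farther from their mean profile than these genes did, at 0.180 for GBP1, 0.179 for GBP3, 0.393 for GBP2 and 0.401 for GBP4. Of the 8 genes, EFNB2 passed the filter of 1 TPM through the HA-TAZ libraries alone, at 0.642 to 0.812 TPM in the controls.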

How the data were processed

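Total RNA of KMS27 cells was depleted of ribosomal RNA and sequenced from both ends in stranded libraries, per the labels' protocols. The submitters' processing notes name FastQC 0.11.91, MultiQC 1.92, kallisto 0.46.0, sleuth 0.30.0 and the build GRCh37. The annotation release is not given in the sources used here. The authors deposited TPM per transcript, which adds up to 1000000 in each library, so depth per library is unknown. They also deposited p-values and q-values of a Wald test per transcript, with the effect and the mean estimated counts as natural log values, per the file headers and the values. Technical variance is another term of the authors' deposited table.

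TPM was summed per gene ID with the pairing in the authors' deposited table and divided by a median-of-ratios factor over 21512 genes with a mean of at least 1 TPM and above 0 in all libraries. log2(scaled TPM + 1) was fitted with limma 3.58.1 (R 4.3.3, intensity trend, 2-sided, Benjamini-Hochberg over all 22651 genes with a mean of at least 1 TPM, threshold 0.05), and likewise over 57448 transcripts. No covariates were used. The fit was tested on simulated data. Ratios and shares were compared by exact 2-sided permutation tests. Python 3.11.15 with pandas 2.3.3 was used for the rest. Shared sequence and transcript types came from GENCODE release 29 (GRCh38).

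All 5 members, their transcripts with a mean of at least 0.1 TPM, and the 3 largest called rises and falls of each gene list were named, with IRF1, GBP6, GBP7, GBP1P1, the direct neighbours and the 8 genes nearest in pattern. 1 gene that this rule names is not reported here. The members and lists were chosen with earlier results of these data known. Alternatives were TPM without factors, other factors, pseudocounts and filters, no trend, protein-coding transcripts only and leaving out each library. Each of the 6 TPM columns was used.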

Additional observations from a re-analysis of the deposited data

How the results depend on the processing

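GBP1 and GBP2 kept their direction and passed the threshold in 12 of 12 alternatives, and GBP4 was called in 0 of 12. The filter of 5 TPM is not among these 12, as it left GBP1, GBP2 and GBP4 untested. GBP3 became significant with protein-coding transcripts only (0.37, limma adjusted p = 0.0472), where fewer transcripts were summed and fewer genes tested; the cause was not tested. Leaving out 1 library gave log2 fold changes of 1.02 to 1.09 for GBP1, 1.47 to 1.502 for GBP2, 0.29 to 0.43 for GBP3 and −0.14 to −0.01 for GBP4. The 1652 genes called became 3329 with TPM as deposited, 691 without the filter, 758 without the trend and 115 to 433 with 1 library left out. The 307 transcripts called became 120, 108 and 156 under the same 3 settings, 1655 at a mean of at least 5 TPM and 12 to 91 with 1 library left out. Called-higher genes of the lists went from 34 to 20 with TPM as deposited and to 13 to 27 with 1 library left out. The 1 called lower became 6 with TPM as deposited, 0 without the filter, 0 without the trend and 0 with any library left out. Values near 0 changed sign. With TPM as deposited these were ENST00000355754.6 of GBP4 (−0.17), LMO4 (−0.0121), LRRC8B (−0.22) and RBMXL1 (−0.16), and with factors from genes at 10 TPM or more ENST00000355754.6 (−0.0181), LRRC8B (−0.0392) and RBMXL1 (-3.76e-04). Leaving out 1 library gave −0.00219 to 0.0928 for ENST00000355754.6, −0.0835 to 0.0823 for GBP6, −0.0471 to 0.12 for LRRC8B and −0.00283 to 0.11 for RBMXL1. Each cause was not tested. No paired analysis was possible because the control columns cannot be tied to numbered samples. Depth per library is unknown. In the authors' deposited table, the mean estimated counts of about 134 for the GBP2 coding transcript give a counting error of 8.65%, and about 48.3 counts for GBP5 one of 14.4%. These counts are geometric means over both groups. As the GBP2 groups lie far apart, 8.65% is the error of neither group alone.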
